A study of Mus musculus with 18 samples.

Results

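The distal ends of the mouse autosomes were examined through 29419 peaks of the histone mark H3K9me3, out of 646397 peaks in 6 peak lists. A peak was taken as distal where its end lay within 5 Mb of the largest peak end found on that chromosome in any of the lists, for chromosomes 1 to 19. The lists held 5527 and 5732 distal peaks in wild-type cells, 2984 and 4214 in Uhrf1 KO cells, and 5760 and 5202 in Dhx9 KO cells. The 19 windows held 94.4 Mb of known sequence, and the rest of the same chromosomes, with 603654 peaks, held 2302 Mb. Position alone chose the members, so their coverage, enrichment and response to the knockouts were not fixed by the choice.

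The libraries came from mouse embryonic stem cells of the ES-E14TG2a line, and each group had 2 replicates. According to the study's methods the replicates were biological, and the Uhrf1 KO lines were clones made with CRISPR in cells that also carry a reporter transgene. The wild-type cells kept both genes. How the Dhx9 KO line was made is not given in the sources used here. Chromatin was precipitated with an antibody against H3K9me3 and sequenced, and peaks were called separately in each library. The sum of ChIP reads in distal peaks ran from 406472 to 1356574 per library. Uhrf1 KO replicate 1 had the fewest. The authors subsampled the libraries toward an equal number of aligned reads before calling peaks. The depth of each library is not in the lists, so the part of sequencing depth in these sums was not tested. The background reads beside the Uhrf1 KO lists differed from those beside the other lists, so the effect of genotype on peak calling and the effect of background cannot be told apart. Dhx9 KO replicate 1 stood apart on 2 chromosomes: outside the distal window it had 13.8% of known bases called on chromosome 8, against 30.6% in replicate 2, and 28.8% on chromosome 4, against 14.5%. Peak lists hold no expression values, so neither the cell type nor the loss of either protein could be checked here.

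H3K9me3 is laid down by methyltransferases such as SUV39H1, SUV39H2 and SETDB1 and marks silent chromatin, above all around centromeres, at telomeres and over retrotransposons. Mouse autosomes have the centromere at the proximal tip, so the distal windows lie at the end of the long arm, next to the telomere, a tandem array of the hexamer TTAGGG. UHRF1 is a ubiquitin ligase that binds methylated H3K9 and hemimethylated DNA and is needed to maintain DNA methylation, and DHX9 is a helicase that unwinds RNA and DNA.

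The last known bases of chromosome 4 are given because they lay in a peak in all 6 libraries without holding the telomere hexamer. They are the + strand of GRCm38 (mm10), read from the RefSeq genome, with any hexamer TTAGGG in capitals, and were chosen after their values were seen.
Chromosome 4 end, chr4:156357967-156358116: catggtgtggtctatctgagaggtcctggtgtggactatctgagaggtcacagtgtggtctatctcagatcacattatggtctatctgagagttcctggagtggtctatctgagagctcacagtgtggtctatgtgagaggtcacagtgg
The stretch held 0 hexamers, so no letter is in capitals. On chromosome 9 the outermost shared region stopped 2.91 kb short of the last known base.

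All 19 chromosomes had an H3K9me3 region with a peak in both wild-type libraries at or near the last known base. Regions were merged over the 6 lists, so the outer end of a region could come from any list. On chromosome 5, for example, wild-type replicate 1 had 0.0% of the last kb called and replicate 2 had 100%. The region overlapped the last known base on 15 chromosomes and came within 100 bases of it on 17. The largest distance was 4.885 kb, on chromosome 15. Of all 3473 distal regions called in both wild-type libraries, 1600 were called in all 6 libraries, and of these 19 outermost ones 17 were. The other two, on chromosomes 7 and 14, had no peak in Dhx9 KO replicate 2, while Dhx9 KO replicate 1 had 20970 and 47386 reads there, so the 2 Dhx9 KO libraries did not give the same picture. On 14 chromosomes the lists of all 6 libraries reached the last bin. The regions were 400 to 20000 bp long, with a median of 4600 bp, and 18 of 19 had an intergenic centre. The exception lay in an intron of Wls, a carrier for secreted Wnt proteins, at the end of chromosome 3.

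Chromosomes 1, 3 and 4 were the first of the 15 by chromosome number. The region at the end of chromosome 1 (chr1:195352401-195372000) held 4906 and 6342 ChIP reads in wild-type cells, 3631 and 6551 in Uhrf1 KO cells, and 4859 and 4607 in Dhx9 KO cells. Its log2 fold over background was 3.07 and 2.84 in wild-type cells, 2.77 and 3.29 in Uhrf1 KO cells, and 2.27 and 2.66 in Dhx9 KO cells. The groups overlapped in reads. The region at the end of chromosome 3 (chr3:159936201-159939800) held 6304 and 21797 reads in wild-type cells, 4662 and 23225 in Uhrf1 KO cells, and 6468 and 4840 in Dhx9 KO cells. Here the replicates of 1 genotype differed more than the genotypes did. At chromosome 4 (chr4:156356401-156358200), the end without hexamers, the counts were 289 and 295, 169 and 359, and 254 and 283 reads in the same order. Ends with hexamers could be as low, such as chromosome 6 with 62 and 63 wild-type reads. The hexamer array recurs at many chromosome ends, so the end that a read of 150 bp came from is uncertain, and its part in these counts was not tested.

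**Figure D1:**
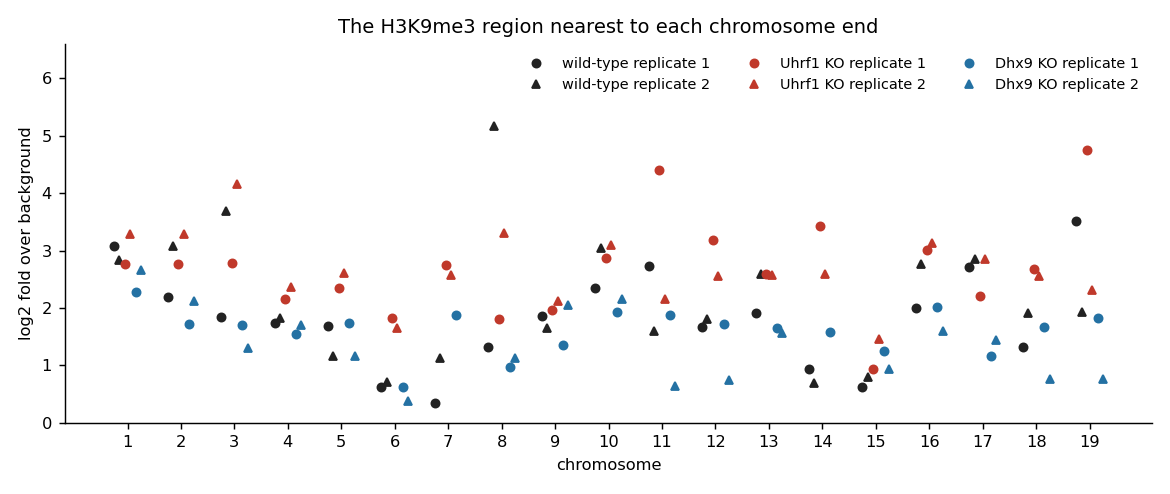
Log2 fold over background (vertical axis) of the outermost H3K9me3 region shared by both wild-type libraries, for each autosome (horizontal axis), with 1 point per library. Of the 19 regions, 17 have a point from all 6 libraries, and the values run from 0.35 to 5.17 among the wild-type libraries.

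The median log2 fold of the terminal regions was 1.84 and 1.92 in the wild-type libraries, 2.76 and 2.58 in Uhrf1 KO, and 1.70 and 1.30 in Dhx9 KO. The median over all distal peaks of the same lists was 0.98 and 0.99, 1.42 and 1.13, and 0.87 and 0.94. The log2 fold of a region was the highest of any peak in it, which raises regions made of several peaks. The terminal regions exceeded their list's distal median on 15 and 16 chromosomes in wild-type cells, 18 and 19 in Uhrf1 KO cells, and 18 and 11 in Dhx9 KO cells. Both Uhrf1 KO libraries had a peak in all 19 terminal regions.

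TTAGGG in at least 3 tandem copies (on either strand, the reverse reading CCCTAA) was found in the last kb of 18 of 19 chromosomes, chromosome 4 being the exception. That last kb touched a peak on 16 and 18 chromosomes in wild-type cells, 17 and 18 in Uhrf1 KO cells, and 17 and 14 in Dhx9 KO cells. Among all 1-kb windows of the distal 5 Mb, 31.0 and 30.2%, 12.1 and 23.0%, and 27.8 and 24.8% touched a peak in the same order. The distal windows held 103 such hexamer runs (1.09 per Mb) and the rest of the chromosomes 426 (0.185 per Mb). Of the distal runs, 60.2 and 65.0% lay in a peak in wild-type cells, 54.4 and 60.2% in Uhrf1 KO cells, and 62.1 and 57.3% in Dhx9 KO cells. The runs elsewhere lay in a peak nearly as often, with 54.5 and 60.3%, 45.8 and 53.5%, and 59.2 and 53.5%.

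Over the whole distal 5 Mb, H3K9me3 peaks covered more of the sequence than in the rest of the same chromosomes. In wild-type cells 26.3 and 25.4% of known distal bases were called, against 16.8 and 16.2% elsewhere. In Uhrf1 KO cells the shares were 9.62 and 19.4%, against 8.22 and 13.8%. In Dhx9 KO cells they were 22.9 and 20.3%, against 16.7 and 16.3%. The difference was 5.99 ± 3.08 percentage points (SD, n = 6 libraries), and the distal share was higher in 6 of 6 libraries (exact two-sided sign-flip permutation test, p = 0.03125, the smallest that 6 libraries allow). The libraries share 1 genome, so this p covers the spread between libraries only. The difference was 2.33 points with peaks of a log2 fold of at least 1 and 3.05 with an equal number of peaks per library.

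The distal windows also had more and longer peaks, with slightly lower enrichment. They held 8.24 ± 3.37 more peaks per Mb than the rest, and the median peak was 400 ± 179 bp longer. The median log2 fold of distal peaks was lower in 6 of 6 libraries, by a difference of -0.08 ± 0.03 on the log2 scale. Each of these had p = 0.03125 in the exact permutation test. They depended on the width of the window: with the last 2 Mb only, the coverage difference was -0.0795 percentage points, the peak density differed by -0.165 per Mb, the median length by -33.3 bp and the log2 fold by 0.04, none beyond the spread between libraries (exact permutation p = 0.875, 0.8125, 1.0 and 0.5).

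Base composition moved with this difference. The distal windows had 43.8% GC against 41.9% elsewhere, 9.61 CpG per kb against 8.46, 12.0 protein-coding genes per Mb against 8.55, and 31.2% repeat-masked sequence against 33.6%. Of distal blocks of 100 kb, 403 (42.6%) fell among the blocks of the highest of 5 GC classes of equal size. When the rest of the chromosomes was weighted to the distal GC content, an alternative chosen after seeing the data, the coverage difference was 2.05 ± 0.90 points, higher in 6 of 6 libraries (exact sign-flip permutation p = 0.03125). In that class itself, distal blocks were 44.7 and 43.1% called in the wild-type libraries, against 38.8 and 37.3% for other blocks. The other classes did not all go this way: in the class of lowest GC, distal blocks were lower in 6 of 6 libraries (differences of -0.913 to -0.327 points), and in the class next to the highest they differed by -0.0132 and 0.133 points in wild-type cells and by -2.74 to -0.470 points in the 4 knockout libraries. After the 6 lists were merged, both wild-type libraries called 3473 distal regions and 70349 others. Regions were placed by their centre, with a promoter reaching 1 kb from a gene start. Of the distal ones 5.67% lay at a promoter, 5.76% in an exon, 41.4% in an intron and 47.2% between genes. The shares elsewhere were 5.03, 4.42, 37.2 and 53.3%.

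The coverage was not even along the 5 Mb. In wild-type cells the terminal 0.5 Mb was 17.5 and 16.5% called and the next 0.5 Mb 15.3% in both libraries. Coverage was highest between 3 and 3.5 Mb from the end, at 38.0 and 37.5%. In Dhx9 KO cells the same bin was 31.7 and 28.1% called, and in Uhrf1 KO cells 11.6 and 29.8%. In the terminal 0.5 Mb the libraries lay closer together, with 13.9 and 14.1% in Uhrf1 KO cells, below wild-type, and 18.7 and 18.9% in Dhx9 KO cells, above it. GC content was 41.4% in the terminal 0.5 Mb and 45.2% between 3 and 3.5 Mb. Coverage reached 34.1 and 33.2% in wild-type cells between 7 and 7.5 Mb, so a high level was not confined to the last 5 Mb.

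**Figure D2:**
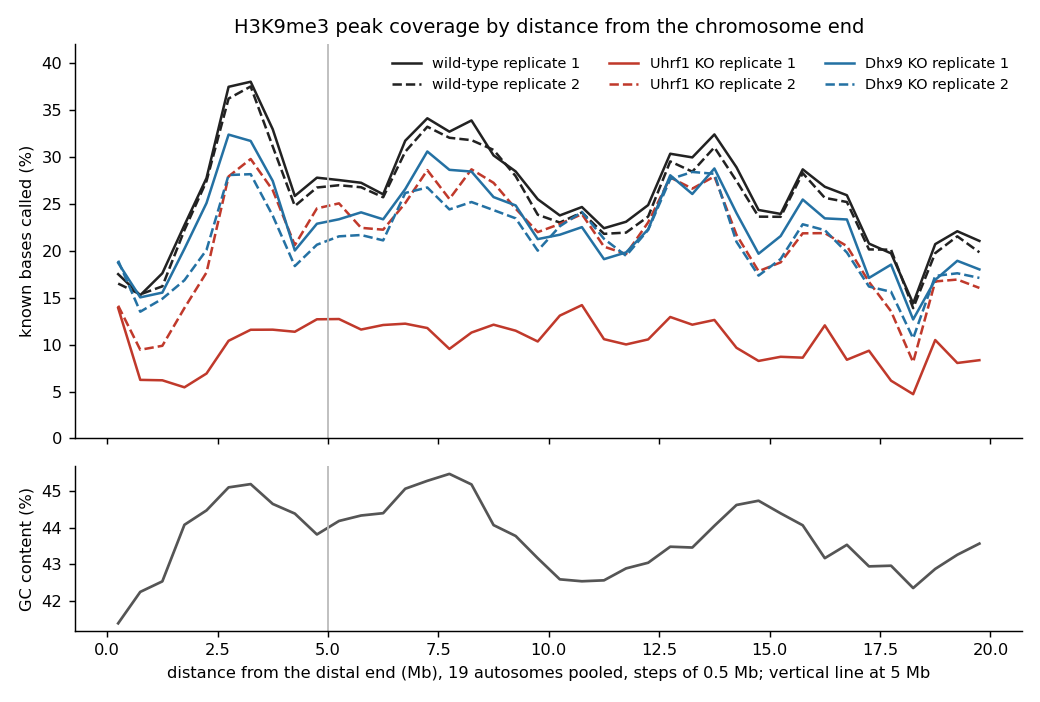
Percent of known bases called as H3K9me3 peaks (vertical axis) in bins of 0.5 Mb by distance from the distal end (horizontal axis, Mb), pooled over the 19 autosomes, with 1 line per library and, in the lower panel, the GC content in percent. The wild-type lines start at 17.5 and 16.5%, rise to 38.0 and 37.5% between 3 and 3.5 Mb, and the Uhrf1 KO lines lie below them there.

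The 19 windows differed widely among themselves. Wild-type coverage ran from 3.51% on chromosome 3 to 54.5% on chromosome 4, with a median of 24.9%. Distal coverage exceeded the rest of the chromosome in 6 of 6 libraries on 13 chromosomes and in 5 of 6 on chromosomes 11 and 15, and was lower in 6 of 6 on chromosomes 3, 13, 17 and 18. For those 17 chromosomes the exact sign-flip permutation test gave an adjusted p of 0.0349 (Benjamini-Hochberg over 19).

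Chromosome 4 had the densest window (chr4:151358201-156358200), with 55.1 and 53.9% called in wild-type cells, 11.4 and 35.8% in Uhrf1 KO cells and 44.8 and 33.7% in Dhx9 KO cells. All knockout libraries lay below both wild-type libraries. Chromosome 7 (chr7:140341601-145341600) followed with 47.4 and 45.8% in wild-type, 9.26 and 24.5% in Uhrf1 KO and 46.4 and 35.4% in Dhx9 KO cells. Chromosome 8 (chr8:124301201-129301200) had 47.3 and 45.3%, 17.2 and 30.8%, and 20.1 and 38.4%, and its lowest Dhx9 KO value came from the replicate that was low along the whole chromosome. These means, 54.5 ± 0.840, 46.6 ± 1.16 and 46.3 ± 1.38% (SD, n = 2), put chromosomes 7 and 8 within their replicate spread of each other and chromosome 4 above both.

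In the sparsest windows no knockout library lay below both wild-type libraries. Chromosome 3 (chr3:154939801-159939800) had 3.30 and 3.72% called in wild-type cells, 3.60 and 3.78% in Uhrf1 KO cells and 5.07 and 5.75% in Dhx9 KO cells. Chromosome 18 had 3.84 and 4.32%, 6.34 and 4.52%, and 4.06 and 6.37%. Chromosome 17 (chr17:89887401-94887400) had 4.21 and 4.45%, 7.97 and 6.38%, and 5.20 and 7.34%, so every knockout library there lay above both wild-type libraries. The wild-type means were 3.51 ± 0.297, 4.08 ± 0.346 and 4.33 ± 0.167% (SD, n = 2), and the last 2 did not differ beyond their spread. Over the 19 windows, wild-type coverage and GC content had a Pearson correlation of 0.89 and a Spearman correlation of 0.88, a description over neighbouring parts of 1 genome read in the same libraries.

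**Figure D3:**
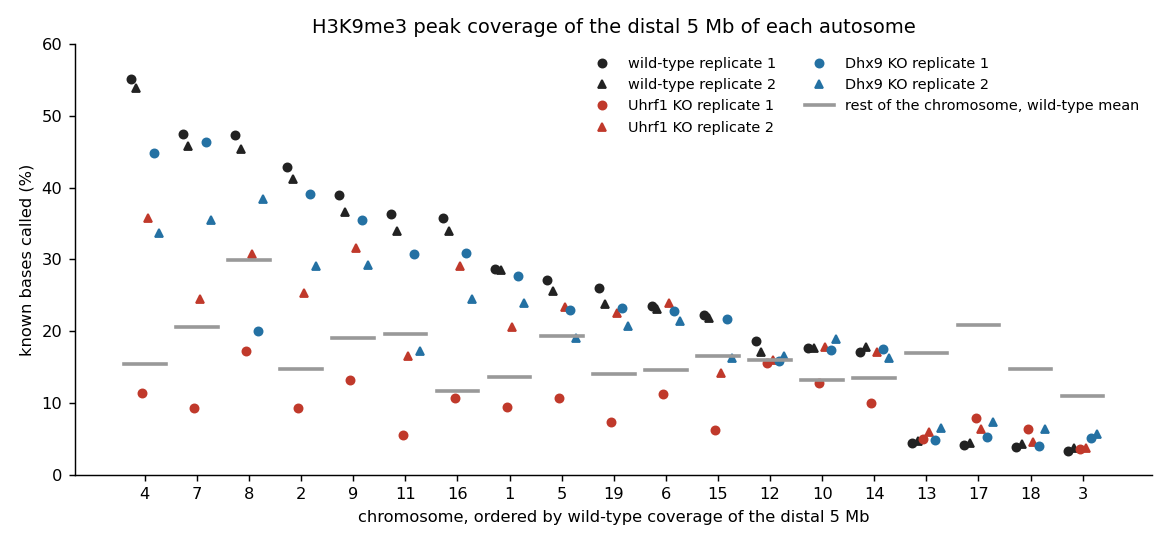
Percent of known bases called as H3K9me3 peaks in the distal 5 Mb (vertical axis) for each autosome (horizontal axis), ordered by wild-type coverage, with 1 point per library and a grey line at the wild-type mean of the rest of the chromosome. Chromosome 4 is highest in wild-type cells at 55.1 and 53.9%, and chromosomes 3, 13, 17 and 18 lie lowest.

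The 6 lists merged into 6116 distal regions, of which 1600 (26.2%) were called in every library, against 22.3% of regions in the rest of the autosomes, and 23.8% were called in 1 library, against 28.6%. In wild-type cells 85.5 and 84.4% of distal peaks overlapped a peak of the other replicate, against 81.7 and 80.6% elsewhere. For Uhrf1 KO the distal shares were 87.5 and 58.2%, against 81.5 and 59.3% elsewhere, and for Dhx9 KO 72.4 and 80.7%, against 71.3 and 73.1%, so Uhrf1 KO replicate 2 was lower in the distal windows. Whole lists differ in size, which sets these shares in part.

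The 5 most enriched regions of at least 2 kb called in all 6 libraries were intergenic. The length is that of the region merged over the 6 lists. They are ranked by the lower of the wild-type log2 folds, each taken from the highest peak in the region. The sequences at the centre of the top 3 are given with each CG in capitals, + strand, GRCm38, since CG is the site of DNA methylation.
Chromosome 17 region, chr17:94292826-94292975: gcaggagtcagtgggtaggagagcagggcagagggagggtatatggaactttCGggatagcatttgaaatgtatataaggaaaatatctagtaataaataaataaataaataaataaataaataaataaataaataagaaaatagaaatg
Chromosome 3 region, chr3:156359026-156359175: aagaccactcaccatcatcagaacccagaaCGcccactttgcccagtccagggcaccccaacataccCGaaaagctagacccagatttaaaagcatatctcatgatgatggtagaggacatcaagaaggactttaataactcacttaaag
Chromosome 12 region, chr12:119592026-119592175: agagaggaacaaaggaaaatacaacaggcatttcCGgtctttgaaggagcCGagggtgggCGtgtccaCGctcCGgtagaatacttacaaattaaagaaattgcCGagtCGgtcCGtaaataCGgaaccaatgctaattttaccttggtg
These windows held 1, 2 and 9 CGs and were repeat-masked over their whole length. The chromosome 17 region (chr17:94288801-94297000) had wild-type log2 folds of 6.68 and 5.31, but peaks of wild-type replicate 1 covered only about 2% of it. The chromosome 3 region (chr3:156357601-156360600) had 4.42 and 4.47, and the chromosome 12 region (chr12:119591001-119593200) 4.42 and 4.61. Next came chr2:177873601-177878200 with 4.38 and 3.84 and chr9:119865401-119870400 with 3.74 and 3.93. Peaks of wild-type replicate 2 covered 41.5% of the chromosome 17 region. In both wild-type replicates peaks covered 26.7% of the chromosome 3, 90.9% of the chromosome 12, 8.7% of the chromosome 2 and 56.0% of the chromosome 9 region. Whether the printed centres lay in a wild-type peak was not examined.

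The longest stretches called without a break in both wild-type libraries lay on chromosomes 4, 7 and 8. The longest, chr4:152782001-152847600, spanned 65.6 kb and stayed 51.2 and 92.7% called in Uhrf1 KO and 92.1 and 89.9% in Dhx9 KO cells. The stretch of 46.0 kb at Slc35f3 (chr8:126298601-126344600), a putative thiamine transporter, stayed 37.8 and 87.8% called in Uhrf1 KO and 79.6 and 92.6% in Dhx9 KO cells. At the mucin gene Muc5ac (chr7:141783601-141826800, 43.2 kb) the shares were 37.5 and 92.6%, and 92.6 and 93.5%. A stretch of 34.4 kb at Sipa1l2 (chr8:125426601-125461000) stayed only 3.49 and 89.5% called in Uhrf1 KO, and 36.0% in both Dhx9 KO libraries. The remaining one, chr7:142554201-142610400, covers the imprinted noncoding RNA gene H19 and is 56.2 kb long, and 3.56 and 57.7% of it stayed called in Uhrf1 KO cells. In all 5 stretches the Uhrf1 KO replicates were far apart, with replicate 1 the lower one.

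The knockout comparisons asked how far the distal mark depends on Uhrf1 and on Dhx9. Of 3718 distal regions that both wild-type lists called, 980 (26.4%) held no peak of either Uhrf1 KO list, against 24.4% in the rest of the autosomes and 24.2% of all regions. Distal loss was near this background. The excess of 1.93 percentage points changed sign with the threshold: it was -1.12 with peaks of a log2 fold of at least 1 and -0.649 with equal numbers of peaks. Of 2101 regions called in both Uhrf1 KO libraries, 125 (5.95%) had no wild-type peak, against 8.51% of all such regions, a difference from the rest of -2.40 points.

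Loss in Uhrf1 KO cells moved with GC content in the distal windows as elsewhere. From the lowest to the highest of 5 GC classes of equal size, 4.72, 15.3, 21.7, 25.9 and 45.4% of distal regions were lost, against 5.03, 17.6, 23.8, 30.4 and 46.1% in the rest. Within every class the distal share was the lower one, and 29.6% of distal regions belonged to the highest class against 19.6% of the others. Among chromosomes, the share lost was highest on chromosome 11 (43.8%, 105 of 240 regions) and chromosome 7 (39.7%, 106 of 267) and lowest on chromosome 17 (9.5%, 8 of 84). The rest of these chromosomes lost 32.7, 26.9 and 24.6%.

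The lost distal regions of at least 2 kb with the highest wild-type enrichment included the promoter of Kcnq1ot1 (chr7:143294401-143298600), a long noncoding RNA that silences its imprinted neighbours on the paternal chromosome. It held 439 and 415 reads in wild-type cells, with log2 folds of 2.08 and 2.06, no peak in either Uhrf1 KO library, and stayed 95 and 100% called in Dhx9 KO cells. The others were chr4:154966401-154979600 in an intron of Pank4 (1217 and 1135 wild-type reads), chr10:130463201-130466400 (77 and 81 reads, also without a peak in both Dhx9 KO libraries), chr12:119526801-119528800, and chr1:194643601-194646200 at an exon of the semaphorin receptor gene Plxna2. Of the 5 most enriched gained regions, 2 lay on chromosome 17 (chr17:93794801-93797000 and chr17:92023401-92025600) and 1 each on chromosomes 5, 13 and 18. The first of these had log2 folds of 2.77 and 3.90 in the Uhrf1 KO libraries.

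In Dhx9 KO cells 286 of 3674 distal regions (7.78%) were lost, against 6.80% in the rest and 6.97% of all regions. The difference of 0.984 points was -1.38 without Dhx9 KO replicate 2, so it rested on that library. Gains were fewer, with 166 of 3131 regions (5.30%) called only in the knockout, against 8.74% of all such regions and a difference from the rest of -3.64 points. The lost regions with the highest wild-type enrichment lay on chromosomes 3, 10, 13, 18 and 19, 1 each, and the gained ones on chromosomes 1, 3, 10, 14 and 16, 2 of them in introns of Fgf14 and Dscam, which encode a growth factor homologue that acts on sodium channels and a neuronal adhesion protein.

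By window, both Uhrf1 KO libraries lay below both wild-type libraries in percent called on 12 of 19 chromosomes, where 55.9% of all 5-Mb windows of the autosomes did, and above both on 3, where 19.2% did. Both Dhx9 KO libraries lay below wild-type on 12 of 19 chromosomes, where 23.0% of all windows did, and above on 3, where 48.3% did. These counts rest on unadjusted coverage and were chosen after seeing the data.

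Relative to all 521 windows of 5 Mb tested, called bins in the distal windows changed by a median of -0.42 on the log2 scale in Uhrf1 KO cells, with 12 lower and 7 higher, against -0.04 in the rest of the autosomes. The values ran from -1.37 on chromosome 11 to 1.24 on chromosome 17. No window passed the threshold in edgeR's quasi-likelihood test (0.0% of all windows, smallest adjusted p = 0.105), 5 lower and 2 higher ones had an unadjusted p under 0.05, and DESeq2 called 7 lower and 3 higher. Over all 521 windows, 89 lower and 105 higher ones had an unadjusted p under 0.05 and DESeq2 called 130 lower and 145 higher. Without Uhrf1 KO replicate 1, edgeR called 9 lower and 4 higher, and without replicate 2 it called 12 lower and 6 higher, with the lone knockout library assumed to vary like wild-type. The same fits called 201 lower and 202 higher, and 230 lower and 238 higher, of all 521 windows. The distal median was -0.09 without replicate 1 and -0.67 without replicate 2. In Dhx9 KO cells the median was -0.25, with 15 lower and 4 higher, against 0.04 in the rest, from -0.75 on chromosome 8 to 0.55 on chromosome 3, which was -0.47 when counted in ChIP reads. Again 0 windows passed (0.0% of all, smallest adjusted p = 0.315 in edgeR's test), with 0 lower and 1 higher at an unadjusted p under 0.05 and 0 by DESeq2. Over all 521 windows DESeq2 called 2 lower and 0 higher, and 16 lower and 63 higher ones had an unadjusted p under 0.05 in edgeR's test. Without Dhx9 KO replicate 1 the same test called 14 lower and 4 higher, and without replicate 2 it called 9 lower and 1 higher, where 201 lower and 213 higher, and 146 lower and 123 higher, of all 521 windows were called. The Dhx9 KO distal median was -0.07 without replicate 2 and, with windows of 2 Mb, 0.02 against 0.04 in the rest. The log2 change ran against GC content over the 19 windows, with a Pearson correlation of -0.96 and a Spearman correlation of -0.94 for Uhrf1 KO and -0.85 for both measures for Dhx9 KO. Over the other 459 windows the Pearson correlations were -0.86 and -0.74. Windows of 1 fit share their libraries, so these correlations are descriptions, and the part of base composition in the result was not tested.

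**Figure D4:**
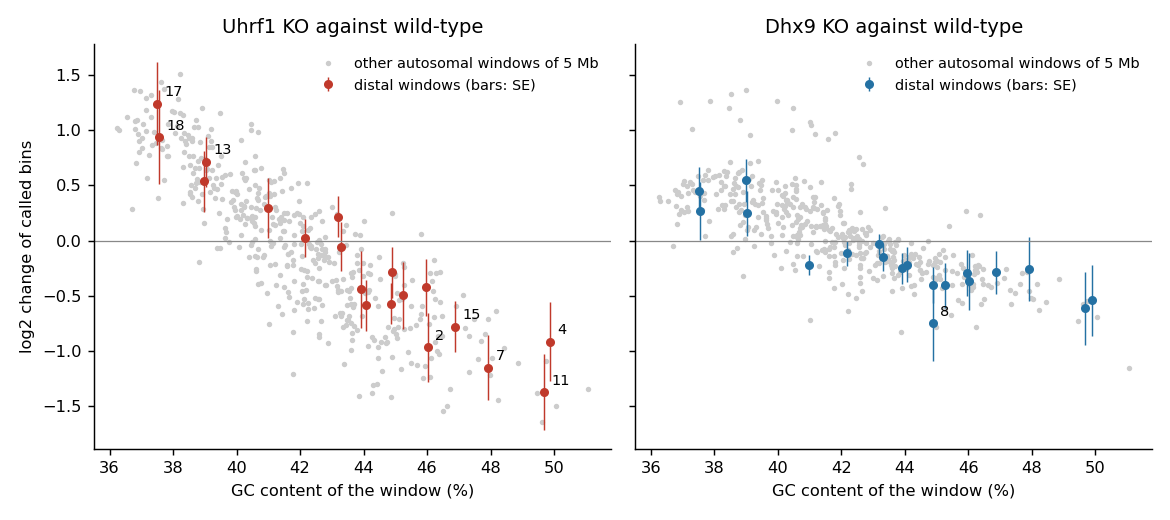
Log2 change in called bins between knockout and wild-type cells (vertical axis) against the GC content of each 5-Mb window (horizontal axis, percent), for Uhrf1 KO and Dhx9 KO, with distal windows as coloured points with SE bars and other autosomal windows in grey. The distal windows fall from 1.24 on chromosome 17 to -1.37 on chromosome 11 in Uhrf1 KO cells as GC content rises.

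As a ratio of distal to remaining coverage, the log2 values were 0.64 and 0.65 in wild-type cells, 0.23 and 0.50 in Uhrf1 KO cells and 0.45 and 0.32 in Dhx9 KO cells. Both knockouts lay below wild-type without overlap, by mean differences of -0.28 and -0.26. Without Uhrf1 KO replicate 1 the first was -0.15, without replicate 2 it was -0.42, and with windows of 2 Mb the Dhx9 KO difference was -0.09. With 2 libraries against 2 the exact permutation test cannot go below p = 0.333, which it gave for both.

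Read counts were then compared in regions that peaks of every library compared covered by at least 80%. For Uhrf1 KO, 87 of the 2528 regions tested were distal, and 1 was lower and 3 higher at an adjusted p under 0.05 in edgeR's quasi-likelihood test, where 5.54% of all regions were lower and 3.2% higher. The lower one lay in an intron of the potassium channel gene Kcnq1 (chr7:143393401-143396400), where the wild-type libraries had 200 and 188 reads and the Uhrf1 KO libraries 45 and 103, a log2 change of -1.07 (SE 0.189, edgeR adjusted p = 0.00396). The Uhrf1 KO libraries were both below both wild-type libraries before scaling to library size. Uhrf1 KO replicate 1 had only 406472 reads in all distal peaks, against 1356574 and 1309779 in the wild-type libraries. The higher ones were chr10:130555001-130562200 (log2 change 0.66, SE 0.167, edgeR adjusted p = 0.0257), chr13:119608801-119619000 at the promoter of Tmem267 (0.66, SE 0.138, edgeR adjusted p = 0.0101) and chr9:123927401-123938400 (0.55, SE 0.159, edgeR adjusted p = 0.0455). The chromosome 9 region held 7036 and 6318 wild-type reads beside 5161 and 12492 Uhrf1 KO reads. The chromosome 13 region held 3227 and 3015 beside 2348 and 5158. In both regions the genotypes overlap before scaling to library size. The chromosome 10 region held 268 and 242 beside 284 and 436, without overlap. All 3 higher regions lay within the last 1 Mb of their chromosome. With equal library sizes, or over all regions called in every library, 0 distal regions passed. Nor did any other region in these 2 fits, with 0 of 2528 and 0 of 40511 called, so these zeros are not particular to the distal windows. The median log2 change of the 87 distal regions was 0.10 with all 4 libraries, against -0.01 in the rest of the autosomes. With equal library sizes it was -0.14, against -0.24 in the rest. Over the 1840 distal regions called in every library, without the 80% rule, the median was -0.02. For the 87 regions it was 0.08 or 0.12 without wild-type replicate 1 or 2, and 0.04 or 0.06 without Uhrf1 KO replicate 1 or 2.

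For chromosome 7, the lost region at the Kcnq1ot1 promoter and the region with fewer reads in the Kcnq1 intron are given with each CG in capitals, + strand, GRCm38.
Kcnq1ot1 promoter region, chr7:143296401-143296600: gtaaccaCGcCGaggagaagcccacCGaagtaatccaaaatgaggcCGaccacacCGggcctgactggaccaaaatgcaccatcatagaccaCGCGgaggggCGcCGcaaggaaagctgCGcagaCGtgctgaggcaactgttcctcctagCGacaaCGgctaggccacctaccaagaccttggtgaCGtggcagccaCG
Kcnq1 intron region, chr7:143394801-143395000: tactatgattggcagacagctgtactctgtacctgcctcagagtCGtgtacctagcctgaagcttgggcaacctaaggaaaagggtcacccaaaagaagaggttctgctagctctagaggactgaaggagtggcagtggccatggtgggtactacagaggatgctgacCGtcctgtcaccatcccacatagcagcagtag
The Kcnq1ot1 stretch held 15 CGs and 60.5% GC, and the Kcnq1 intron stretch 2 CGs and 52.5% GC. Both lie inside the gene Kcnq1, and both windows are unmasked.

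For Dhx9 KO, 228 of 4701 regions tested were distal. Of these 2 were lower and 0 higher, where 0.553% of all regions were lower and 0.0425% higher in edgeR's test. At an unadjusted p under 0.05 there were 15 lower and 6 higher, beside 367 lower and 206 higher among all 4701 regions. DESeq2 called 2 lower and 0 higher distal regions, beside 27 lower and 1 higher of all. The region chr9:119867601-119870400 held 465 and 510 reads in wild-type and 247 and 326 in Dhx9 KO cells (log2 change -0.77, SE 0.161, edgeR adjusted p = 0.0361). The region chr8:129264601-129272200 held 1029 and 1078 reads in wild-type and 448 and 762 in Dhx9 KO cells (-0.71, SE 0.141, edgeR adjusted p = 0.0249), on the chromosome where Dhx9 KO replicate 1 was low throughout. With equal library sizes 0 passed, and so it was without wild-type replicate 1, while 1 lower passed without wild-type replicate 2, 18 lower and 7 higher without Dhx9 KO replicate 1, and 17 lower and 8 higher without Dhx9 KO replicate 2. Over all 4701 regions these last 2 fits called 255 lower and 225 higher, and 502 lower and 232 higher.

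Gene groups in the distal windows differed in how much of their bodies was called. Over all 1140 protein-coding genes there, a mean of 23.7 and 23.2% of the gene body was called in wild-type cells, 5.1 and 13.9% in Uhrf1 KO cells and 23.1 and 15.7% in Dhx9 KO cells. The 27 keratin genes on chromosome 15, which encode intermediate filaments of epithelia, had 86.0 and 84.7%, 23.5 and 77.0%, and 83.8 and 77.2%. All 27 had a peak in both wild-type libraries, where 55.2 and 54.7% of all distal protein-coding genes had one. The 28 keratin genes outside the windows had 61.3 and 61.1%, 25.3 and 65.0%, and 60.1 and 53.2% called, and 82.1% of them had a peak in each wild-type library. The 17 imprinted-cluster genes on chromosome 7 had 53.6 and 49.1%, 9.4 and 21.5%, and 52.2 and 41.9%. As over all 1140 distal protein-coding genes, both Uhrf1 KO libraries lay below all others on this list. Within that list H19 was fully called in wild-type and Dhx9 KO cells and not called in Uhrf1 KO cells, whereas Tnfrsf23 kept 40.6 and 56.4% in Uhrf1 KO against 48.5 and 51.5% in wild-type cells.

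**Figure D5:**
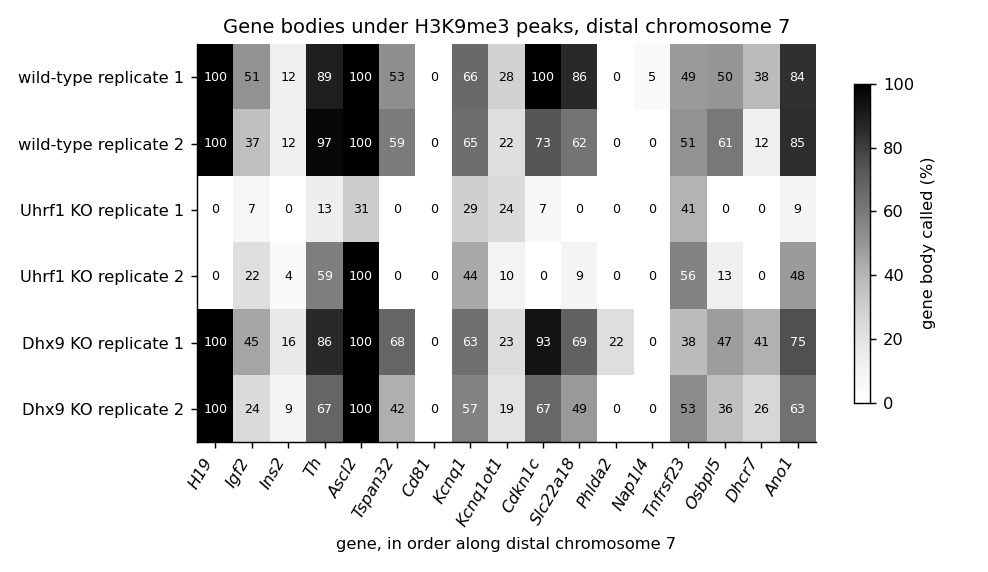
Percent of the gene body called as H3K9me3 peaks, printed in each cell and shaded from white at 0 to black at 100, for the 17 listed genes of distal chromosome 7 in order along it (horizontal axis) and the 6 libraries (vertical axis). H19 is at 100% in the wild-type and Dhx9 KO libraries and at 0% in both Uhrf1 KO libraries, and Cd81 is at 0% in all 6.

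The 54 variable segments of the immunoglobulin heavy chain locus (Igh), that fell in the window of chromosome 12, were more called in Uhrf1 KO and less in Dhx9 KO cells. They were 59.1 and 61.0% called in wild-type cells, 79.6 and 68.8% in Uhrf1 KO cells and 24.1 and 32.9% in Dhx9 KO cells, and 35 and 37, 46 and 39, and 14 and 19 of them had a peak. The 3 genotypes did not overlap on either measure. The 131 Igh variable segments outside the window moved in the same directions, with 29.6 and 27.0%, 47.3 and 35.4%, and 17.4 and 15.5% called. The 89 olfactory receptor genes were called far less, at 9.97 and 6.72%, 6.63 and 6.69%, and 12.8 and 13.5%. The 17 zinc finger genes had 8.3 and 13.0%, 9.3 and 6.9%, and 7.8 and 6.8%, with wild-type and Uhrf1 KO overlapping. The 423 zinc finger genes outside the windows had 14.9 and 14.4%, 10.1 and 11.2%, and 11.6 and 11.9%. All protein-coding genes outside the windows had 18.2 and 17.6% in wild-type cells. Genes of a list lie side by side and share peaks, so they are not independent.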

How the data were processed

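Peak lists of 6 H3K9me3 libraries were used. The authors aligned 150-bp reads to mm10 with Bowtie2 2.3.4.3, subsampled the aligned reads toward equal depth, and called peaks in each library against a background library with SICER (epic2, version 0.0.51), keeping duplicates. The deposited columns hold, per peak, counts of ChIP and background reads, a log2 fold over background, a p-value (also adjusted within the list) and a score, which was not used. Peaks were binned to 200 bp, and regions were located with GENCODE vM21 and the RefSeq GRCm38.p6 genome. Lists were merged for lost and gained regions, where lost means a peak in both wild-type and neither knockout library. Pooled values per library were tested with exact sign-flip or permutation tests, and counts of called bins per window (at least 10 on average) and of ChIP reads per region (offset for called length) with edgeR 4.0.16 (R 4.3.3). DESeq2 1.42.0 was an alternative. Scripts ran in Python 3.11.15 and were tested on simulated data. Sequencing depth is not in the lists, so its part in the counts in peaks was not tested. The p-values measure only the spread between these samples.

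Named regions were those highest in wild-type log2 fold, longest, outermost, lost, gained or past the threshold, and the gene lists were set by symbol. The members, lists and tests were chosen with earlier results of these data known. Alternatives are given with the closing observations. The deposited gene annotation, edited for a reporter on chromosome 2, and 12 other samples (inputs and other experiments) were not used here. A named region and some sequences are not reported here.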

Additional observations from a re-analysis of the deposited data

Results flagged for a closer look

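Of 25 distal quantities compared between the knockouts, 4 moved one way in both Uhrf1 KO libraries and the other way in both Dhx9 KO libraries relative to the wild-type mean. None of these differences was tested. The Igh variable segments differed by 45.8 percentage points of gene body called between the Uhrf1 KO and Dhx9 KO changes, with a change of 14.2 in Uhrf1 KO and -31.6 in Dhx9 KO cells. The distal olfactory receptor genes differed by -6.51 points, with -1.68 and 4.83, though Uhrf1 KO replicate 2 (6.69%) lay beside wild-type replicate 2 (6.72%). The 1310 olfactory receptor genes elsewhere moved in the same directions, with 8.36 and 8.62% in wild-type, 4.52 and 6.89% in Uhrf1 KO and 9.47 and 10.1% in Dhx9 KO cells. The log2 ratio of distal to remaining coverage differed by 0.26 on chromosome 10 (0.18 in Uhrf1 KO, -0.08 in Dhx9 KO) and by 0.30 on chromosome 14 (0.14 and -0.15).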

How the results depend on the processing

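The distal minus rest coverage difference stayed above 0 in every alternative run except the 2-Mb window (-0.0795 points, beside -0.165 peaks per Mb, 0.0406 log2 fold and -33.3 bp), and the median length differed by 300 bp with equal peak numbers (exact permutation p = 0.0625). Leaving out single libraries gave 5.29 to 6.91 points, 7.47 to 9.21 peaks per Mb, -0.0885 to -0.0725 log2 fold and 360 to 440 bp, where 5 libraries allow no p below 0.0625. The difference in Uhrf1 KO loss was -1.12 with a log2 fold of at least 1, -0.649 with equal peaks, -0.992 with 10 Mb and 5.80 with 2 Mb, and in gain -1.22 with 2 Mb, -4.00 counted in bases and -6.43 to -3.84 without single libraries. For Dhx9 KO, loss was 2.06 at a false discovery rate of 1e-10, 3.29 with log2 fold 1, 2.38 with equal peaks and -1.38 to 3.27 without single libraries, and gain was -2.38 with equal peaks, -1.47 with 2 Mb, -5.43 in bases and -7.57 to -5.39 without single libraries. Distal regions past the threshold in Uhrf1 KO numbered 0 with equal library sizes, 0 over all called regions, 0 in a fit of all 6 libraries, 8 without the length offset, 16 with 10 Mb, 5 with a crossed replicate block and 1 to 10 without single libraries; in Dhx9 KO 0 with equal sizes, 0 without the offset, 0 over all called regions, 0 in the fit of 6 libraries, 6 with 10 Mb and 0 to 25 without single libraries. Uhrf1 KO windows past it numbered 5 by number of peaks, 10 by DESeq2 and 0 to 18 without single libraries, and Dhx9 KO windows 0 to 18. In these leave-one-out fits the lone knockout library is assumed to vary like wild-type. For Uhrf1 KO, 0 regions of the whole genome passed with equal library sizes or over all called regions. The chromosome 3 window changed by -0.47 in Dhx9 KO counted in ChIP reads, and the imprinted genes by -9.44 to 0.848 points without single libraries, the reversal being without Dhx9 KO replicate 2. The cause was not tested. Equal library sizes moved the median Uhrf1 KO change of all windows from 0.06 to -0.36 and of distal windows to -0.74.

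Replicate numbers did not pair the libraries: same-numbered deviations correlated at -0.416 for wild-type and Uhrf1 KO and 0.217 for wild-type and Dhx9 KO. The replicate block gave 3 distal Uhrf1 KO regions, beside 141 lower and 71 higher of all 2528. It gave 3 distal Uhrf1 KO windows, beside 45 lower and 43 higher of all 521. In Dhx9 KO it gave 6 distal regions, beside 64 lower and 16 higher of all 4701, and 0 distal windows. The crossed block, chosen after seeing the data, gave 6 distal Uhrf1 KO windows, beside 54 lower and 90 higher of all 521.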
